A study of Mus musculus with 6 samples.

Results

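The 10 genes described here mark mast cells: the proteases Cpa3, Cma1, Mcpt4, Tpsb2 and Tpsab1, the receptors Kit, Ms4a2, Fcer1a and Mrgprb2, and the transcription factor Gata2. They were taken by symbol from 48709 genes in a count table of the mouse gingiva, the mucosa around the teeth, and all 10 had a row. RNA sequencing compared gingiva without plasminogen (Plg KO, 3 libraries) with gingiva of wild-type littermates (Plg WT, 3 libraries). All mice were C57BL/6 and 12 weeks old, and the allele that removes Plg, the hour of sampling and whether animals were pooled were not stated. Plg encodes plasminogen, the precursor of the clot-dissolving protease plasmin. The series asks how fibrin bears on neutrophils at mucosal barriers, and the mast cell genes were not named as its subject.

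Mast cells are resident immune cells of connective tissue and mucosa that store proteases, histamine and heparin in granules. Binding of antigen to IgE on their high-affinity receptor, or of basic peptides to Mrgprb2, releases these granules, and the growth factor receptor Kit sustains the cells. In mice, connective tissue mast cells carry the chymases Cma1 and Mcpt4 with the tryptase Tpsb2 and the carboxypeptidase Cpa3, whereas mucosal mast cells carry Mcpt1 and Mcpt2. Mast cell chymases and tryptases act on matrix and clotting proteins.

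In Plg KO gingiva the mean level of each of the 5 proteases was between 0.341 and 0.602 of that in Plg WT gingiva, and for each of them every Plg KO library lay below every Plg WT library. None passed the test across all genes. Kit pointed the other way with overlapping groups, Gata2 had nearly equal levels in both groups, and Ms4a2, Fcer1a and Mrgprb2 were too low to be tested. Among 17757 genes tested by edgeR (quasi-likelihood, Benjamini-Hochberg adjustment), 0.237% were called at an adjusted p under 0.05, and 0.0451% were called lower in Plg KO. Of the 7 tested members 0 were called in either direction. At an unadjusted p under 0.05, 5 of the 7 were lower, against 4.27% of all tested genes, and 0 were higher, against 4.97%. With 1 library left out, 3 to 5 were lower (3 when the library was Plg WT 2 or Plg WT 3). Kit was higher at this threshold when Plg KO 3 or Plg WT 1 was left out. All Plg KO libraries lay below all Plg WT libraries for 7.18% of the tested genes. DESeq2 called 1 member lower, Cma1, against 0.721% of all tested genes, and limma-voom and limma-trend called 0, against 0.231% and 0.242%. The genes were chosen with earlier results of these data known, so these counts are a description of them. In whole tissue, fewer mast cells and less of a transcript per mast cell cannot be told apart.

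**Figure D1:**
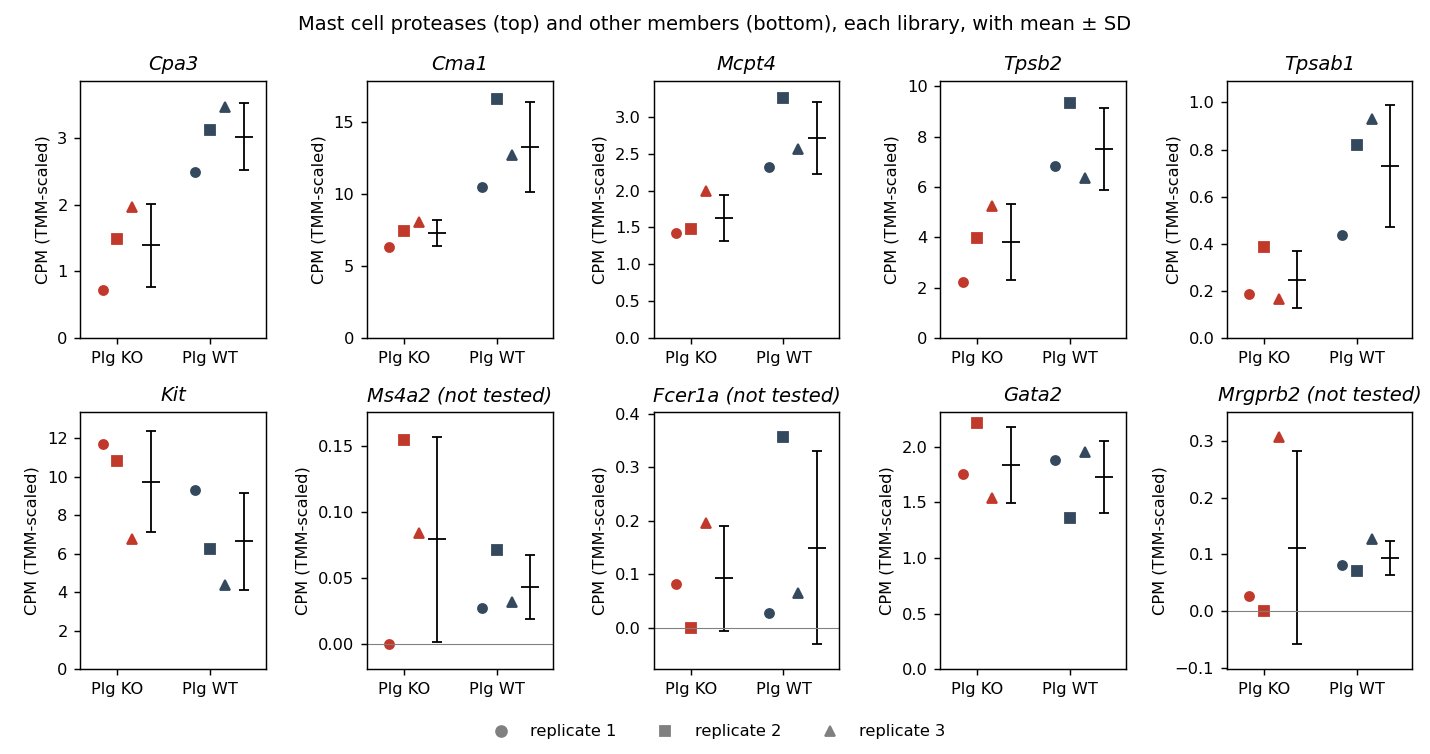
Level of each of the 10 genes in CPM (read counts scaled to library size with TMM factors), with Plg KO libraries in red on the left and Plg WT libraries in blue on the right. Each symbol is 1 library, and black bars give the mean ± SD of 3 libraries. For the 5 proteases in the top row every Plg KO library lies below every Plg WT library, and in the bottom row the groups overlap for all 5 genes.

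Total gene counts were 26183389 to 36429150 per Plg KO library and 28184139 to 36006829 per Plg WT library, so that 3 counts, the most a count of 0 allows, equal 0.0824 to 0.115 CPM. Plg itself had 2 counts over the Plg KO libraries and 2 over the Plg WT libraries, its main source being the liver, and gives no check of the genotype. The Y-linked gene Ddx3y marked 1 male library in each group, Plg KO 1 and Plg WT 3. The male library of each group thus came from other mice than the rest of that group, which may share animals. Nothing in the labels ties each library to its own mouse. The p-values therefore speak only of library-to-library spread, possibly technical in part.

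Cpa3 encodes carboxypeptidase A3, an exopeptidase of the mast cell granule that is bound to heparin (ENSMUSG00000001865, GRCm38 chromosome 3, 20215620 to 20242181). It had 0.729, 1.48 and 1.96 CPM in the Plg KO libraries, from 27, 38 and 70 counts, against 2.48, 3.11 and 3.46 CPM in the Plg WT libraries, from 91, 87 and 108 counts. All Plg KO libraries were lower, and Plg KO 1 was the lowest of all. The mean was 1.39 ± 0.621 CPM in Plg KO and 3.02 ± 0.494 CPM in Plg WT (SD, n = 3 each), and the log2 change was -1.12 ± 0.37 (SE). This difference did not pass (edgeR, Benjamini-Hochberg adjusted p of 0.376, unadjusted p of 0.0179).

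Cma1 and Mcpt4 encode the chymases mast cell protease 5 and mast cell protease 4, and both lie in the chymase locus on chromosome 14, where 114953 bases separate them. Mcpt4 cleaves after aromatic residues and is regarded as the mouse counterpart of human chymase. Cma1 (ENSMUSG00000022225, 55941451 to 55944675) had the highest level per length of exon among the proteases, and without that correction it had 6.32, 7.42 and 8.09 CPM in the Plg KO libraries, against 10.5, 16.6 and 12.7 CPM in the Plg WT libraries. The 3 Plg KO libraries lay close together and below the Plg WT libraries, among which Plg WT 2 was highest. Cma1 averaged 7.28 ± 0.898 CPM in Plg KO and 13.3 ± 3.07 CPM in Plg WT (SD, n = 3 each), and the log2 change was -0.86 ± 0.20 (SE). Its unadjusted p of 0.00282 was the smallest of the members, and the edgeR adjusted p of 0.194 missed the threshold. By DESeq2 it fell, with an adjusted p of 0.0128, which was the lowest of a range that reached 0.584 over the alternatives run.

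Mcpt4 (ENSMUSG00000061068, 56059629 to 56062313) had 1.43, 1.48 and 1.99 CPM in the Plg KO libraries, against 2.32, 3.25 and 2.56 CPM in the Plg WT libraries. Its groups did not overlap, and Plg WT 2 was again the highest library. The log2 change was -0.73 ± 0.25 (SE, n = 3 each), with an edgeR adjusted p of 0.403 and an unadjusted p of 0.0218. At or below this log2 change stood 3.6% of all tested genes. The paired-end reads were 37 bases long, and 8.82% of the 37-base windows of Cma1 transcripts and 8.96% of those of Mcpt4 also occur in a transcript of another gene in GENCODE M21. For Cma1 these windows are shared with the gene model Gm48934, which had no row under that name in the count table. For Mcpt4 they are shared mainly with Cma2, which had 0 counts over the Plg KO libraries and 3 over the Plg WT libraries. With the counts of Cma1 and Mcpt4 summed before the fit, the log2 change was -0.84.

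Tpsb2 and Tpsab1 encode the tryptases mast cell protease 6 and mast cell protease 7, trypsin-like enzymes that assemble into tetramers on heparin. They lie on chromosome 17 with 20742 bases between them, and at most 0.185% of the 37-base windows of either transcript also occur in another gene, so shared reads between this pair can be few. Tpsb2 (ENSMUSG00000033825, 25366305 to 25369098) had 2.24, 3.96 and 5.24 CPM in the Plg KO libraries, against 6.85, 9.35 and 6.34 CPM in the Plg WT libraries. Plg KO 1 was lowest and Plg KO 3 came closest to the Plg WT libraries. Its means were 3.81 ± 1.5 CPM in Plg KO and 7.52 ± 1.61 CPM in Plg WT (SD, n = 3 each), and the log2 change was -0.98 ± 0.32 (SE). It did not pass, with an edgeR adjusted p of 0.375 and an unadjusted p of 0.017.

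Tpsab1 (ENSMUSG00000024173, 25343245 to 25345562) was scarce, with 7, 10 and 6 counts in the Plg KO libraries, against 16, 23 and 29 counts in the Plg WT libraries. These counts equal 0.189, 0.388 and 0.168 CPM in Plg KO and 0.437, 0.821 and 0.929 CPM in Plg WT. The groups stood apart by little, between Plg KO 2 and Plg WT 1. C57BL/6 mice are known to make little mast cell protease 7 because of a splice site change in Tpsab1. The log2 change was -1.57 ± 0.49 (SE, n = 3 each), and edgeR gave an adjusted p of 0.354 and an unadjusted p of 0.014. At these low counts the value depends on the fit, and it was -0.71 and -0.28 by limma-trend with pseudocounts of 0.5 and 2. Summing the counts of both tryptases before the fit gave a log2 change of -1.02.

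The bases upstream of the starts listed by RefSeq are shown for 3 proteases and for Kit, because the proteases differed together and Kit did not follow them. RefSeq's promoter set for GRCm38.p6 held 8 of the 10 genes, all but the tryptases. The 250 bases before a listed start are printed 5′ to 3′ on the strand of the gene. These starts can differ from the GENCODE M21 coordinates given for each gene. The Kit window ends at 75574986, inside the GENCODE gene, which begins at 75574916. Capitals mark GATAA or its reverse complement TTATC, the letters that GATA factors such as Gata2 recognise.
Cpa3, chr3:20242182-20242431, minus strand: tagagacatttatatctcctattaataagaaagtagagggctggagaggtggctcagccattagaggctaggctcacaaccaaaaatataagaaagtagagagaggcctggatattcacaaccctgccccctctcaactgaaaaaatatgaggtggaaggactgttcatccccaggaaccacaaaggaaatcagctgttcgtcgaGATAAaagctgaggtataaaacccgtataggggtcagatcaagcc
Cma1, chr14:55944676-55944925, minus strand: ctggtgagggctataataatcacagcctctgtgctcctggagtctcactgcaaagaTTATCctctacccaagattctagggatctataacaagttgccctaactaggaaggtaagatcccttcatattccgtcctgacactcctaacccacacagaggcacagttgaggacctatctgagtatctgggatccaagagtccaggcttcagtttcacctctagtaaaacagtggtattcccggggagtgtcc
Mcpt4, chr14:56062311-56062560, minus strand: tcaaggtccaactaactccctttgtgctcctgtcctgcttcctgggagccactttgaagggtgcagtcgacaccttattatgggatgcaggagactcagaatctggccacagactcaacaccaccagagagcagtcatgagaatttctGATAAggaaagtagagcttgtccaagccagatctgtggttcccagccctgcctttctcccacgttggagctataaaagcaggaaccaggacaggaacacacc
Kit, chr5:75574737-75574986, plus strand: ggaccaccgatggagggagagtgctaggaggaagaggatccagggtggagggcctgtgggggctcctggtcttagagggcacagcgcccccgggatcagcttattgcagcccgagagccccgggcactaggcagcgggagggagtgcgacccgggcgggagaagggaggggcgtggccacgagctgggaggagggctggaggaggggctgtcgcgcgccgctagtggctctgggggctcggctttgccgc
In Cpa3 the motif starts 45 bases before the RefSeq start, in Mcpt4 102 bases and in Cma1 194 bases, the last in the reverse orientation. Kit has none in this window.

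Searched on both strands, GATAA was found in 6 of the 8 genes with a window, namely Cpa3, Cma1, Mcpt4, Ms4a2, Fcer1a and Mrgprb2, and was not found in Kit or in Gata2, each of which has more than 1 listed start. Of all 32851 promoter windows of this length, 22.6% held it. Base composition differs between these windows, with 37.2% to 51.2% G and C in the 6 windows with the motif and 67.2% to 74% in those of Kit and Gata2. Among the 13507 windows with under 50% G and C, 36.6% held the motif. The letters CATGTG, a form of the E-box that Mitf recognises, were found on either strand in 1 of the 8 genes, Fcer1a, and in 12.3% of all windows. The windows with GATAA thus include proteases that were lower in Plg KO libraries and receptors too scarce to compare.

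Kit encodes the receptor of stem cell factor, on which mast cells depend, and is also carried by melanocytes (ENSMUSG00000005672, chromosome 5, 75574916 to 75656722). It had 11.7, 10.8 and 6.75 CPM in the Plg KO libraries, against 9.33, 6.25 and 4.36 CPM in the Plg WT libraries. The groups overlapped, since Plg KO 3 lay below Plg WT 1. The log2 change was 0.55 ± 0.32 (SE, n = 3 each; edgeR adjusted p = 0.67, unadjusted p = 0.125). Within single libraries, Kit had 16, 7.29 and 3.44 counts per Cpa3 count in Plg KO, against 3.76, 2.01 and 1.26 in Plg WT. This ratio overlapped between the groups through Plg KO 3 and Plg WT 1. Melanocyte markers, summed over the 6 listed genes, had 4.05 to 6.41 CPM in Plg KO and 5.96 to 7.18 CPM in Plg WT. Of these, Pmel alone had 2.7 to 4.31 CPM in Plg KO and 3.96 to 5.29 CPM in Plg WT. Tyr, the pigment-forming tyrosinase, had 0 counts in every library. The part of melanocytes in the Kit level was not tested.

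Fcer1a and Ms4a2 encode the alpha chain, which binds IgE, and the beta chain, which amplifies the signal, of the high-affinity IgE receptor. Fcer1a (ENSMUSG00000005339, chromosome 1, 173221284 to 173227214) had 3, 0 and 7 counts in the Plg KO libraries, against 1, 10 and 2 counts in the Plg WT libraries. Ms4a2 (ENSMUSG00000024680, chromosome 19, 11615523 to 11623719) had 0, 4 and 3 counts in Plg KO, against 1, 2 and 1 in Plg WT. Mrgprb2, the mouse receptor for basic secretagogues that marks connective tissue mast cells (ENSMUSG00000050425, chromosome 7, 48550965 to 48558086), had 1, 0 and 11 counts in Plg KO, against 3, 2 and 4 in Plg WT. The groups overlapped for all 3 receptors, most libraries were near the limit that a count of 0 allows, and a difference was not detectable at this depth. Of 12 Mrgprb2 counts in Plg KO, 11 came from Plg KO 3. The defining receptors of mast cells were thus close to undetected in both groups, while the granule proteases and Kit were measured.

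Gata2 encodes a zinc finger factor that mast cells need and that endothelium also makes (ENSMUSG00000015053, chromosome 6, 88193891 to 88207032). It had 1.75, 2.21 and 1.54 CPM in the Plg KO libraries, against 1.88, 1.36 and 1.95 CPM in the Plg WT libraries. Plg KO 2 was highest and Plg WT 2 lowest, and the ranges of the groups overlapped. The log2 change was 0.08 ± 0.26 (SE, n = 3 each; edgeR adjusted p = 0.963). It was -0.07 when either Plg KO 2 or Plg WT 2 was left out. Endothelium markers were at similar levels in both groups, with 96.1 to 149.2 CPM summed over 8 genes in Plg KO and 127.6 to 156.6 CPM in Plg WT.

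The order of the 10 levels was compared as CPM per kilobase of exon, averaged over the 6 libraries. Cma1 stood first at 9.42 CPM per kilobase, then Tpsb2 at 3.55, Mcpt4 at 1.96 and Cpa3 at 1.45. Each of the first 3 was above the next in 6 of 6 libraries, although the ranges over libraries overlapped, whereas Cpa3 was above Kit (0.919) in 4 of 6. The order of these 2 differed by group, with means of 0.915 for Cpa3 and 1.09 for Kit in Plg KO, against 1.99 and 0.746 in Plg WT. Kit and Gata2 (0.33) had ranges that did not overlap. Gata2 and Tpsab1 (0.233) overlapped over the 6 libraries. By group, Gata2 and Tpsab1 had means of 0.34 and 0.119 in Plg KO, against 0.321 and 0.348 in Plg WT. Fcer1a, Mrgprb2 and Ms4a2 followed at 0.121, 0.0495 and 0.0219 CPM per kilobase.

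Together the 5 proteases had 10.9, 14.7 and 17.5 CPM in the Plg KO libraries, against 22.6, 33.1 and 26 CPM in the Plg WT libraries. The mean of these sums was 14.4 ± 3.29 CPM in Plg KO and 27.2 ± 5.36 CPM in Plg WT (SD, n = 3 each), or 0.527 of the Plg WT level. Within a library the chymases kept a narrow proportion, with 4.07 to 5.03 Cma1 counts per Mcpt4 count in Plg KO and 4.53 to 5.1 in Plg WT. Cma1 counts per Tpsb2 count were 1.55 to 2.82 in Plg KO and 1.53 to 2 in Plg WT. Cma1 counts per Cpa3 count were 4.13 to 8.67 in Plg KO and 3.67 to 5.33 in Plg WT, with the highest in Plg KO 1. Tpsb2 counts per Tpsab1 count varied most, from 10.2 to 31.2 in Plg KO and from 6.83 to 15.7 in Plg WT. All of these ratios overlapped between the groups.

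**Figure D2:**
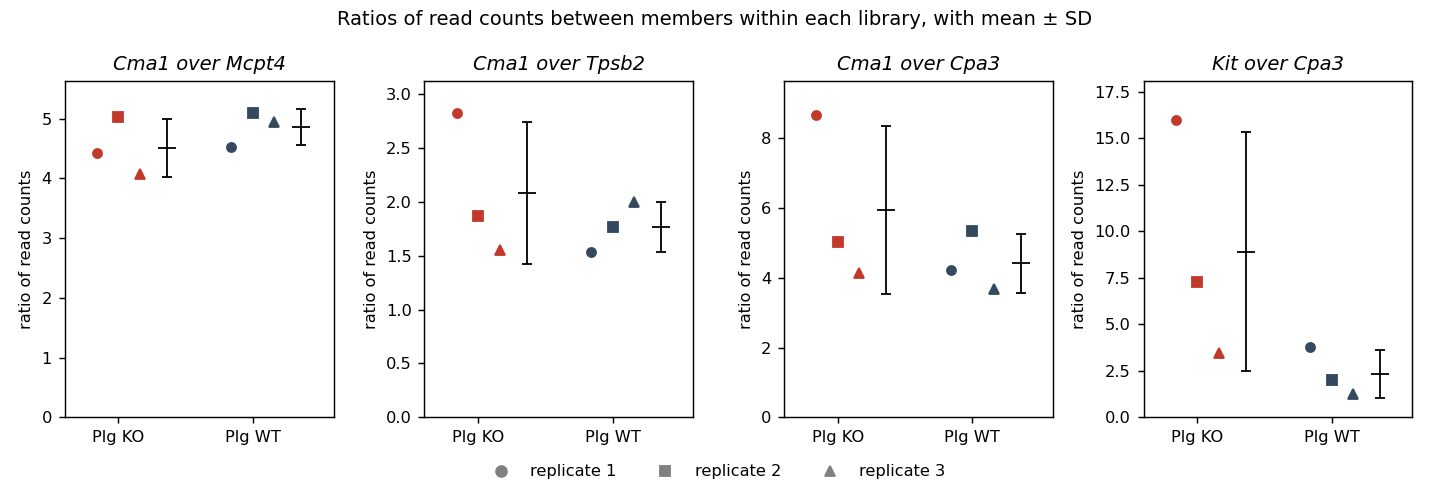
Ratios of read counts between pairs of members within each library (vertical axes, from 0), with Plg KO on the left and Plg WT on the right. Each symbol is 1 library and black bars give the mean ± SD. The ratio of Cma1 to Mcpt4 lies between 4.07 and 5.1 in all 6 libraries, and the ratio of Kit to Cpa3 is highest in Plg KO 1.

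Other proteases of mast cells, of basophils and of the chymase locus were nearly absent. Of 9 genes in this list none had enough counts to be tested, and 3 had 0 counts in every library: Mcpt2 of mucosal mast cells, Mcpt8 of basophils and Mcpt9. Mcpt1, the other protease of mucosal mast cells, had 0 counts over the Plg KO libraries and 1 over the Plg WT libraries. Tpsg1, a membrane-anchored tryptase, had 1, 0 and 2 counts in the Plg KO libraries, against 7, 4 and 4 in the Plg WT libraries. The basophil protease Prss34 had 1, 3 and 1 counts in Plg KO and 0 in each Plg WT library. The proteases measured in this gingiva were ones known from connective tissue mast cells. Basophil markers as a whole had 3 of 6 genes tested and 0 called (unadjusted p under 0.05 in 0, DESeq2 and both limma fits 0).

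Of 13 genes that act downstream of the IgE receptor, all were tested, and edgeR, limma-voom and limma-trend called 0. At an edgeR unadjusted p under 0.05, 1 was higher, against 4.97% of all tested genes, and 3 were lower, against 4.27%. DESeq2 called 2 lower, against 0.721% of all tested genes. The median log2 change was -0.33, against -0.00 over all tested genes. Plcg2, a phospholipase that forms calcium-releasing messengers, had 18, 15.8 and 18.6 CPM in the Plg KO libraries, against 27.6, 31 and 27.8 CPM in the Plg WT libraries. Btk, a kinase that activates Plcg2, had 1.48, 1.71 and 2.18 CPM in Plg KO, against 9.77, 5.14 and 3.68 CPM in Plg WT. Both had groups apart with Plg KO lower, as 7.18% of the tested genes did, and both also serve the antigen receptor of B cells. Their log2 changes were -0.72 ± 0.11 and -1.79 ± 0.38 (SE; edgeR adjusted p = 0.0698 and 0.172). The adaptor Lat2 had a log2 change of -0.53 ± 0.21, and Fcer1g, the gamma chain that many myeloid receptors share, one of 0.43 ± 0.17.

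The list for synthesis and storage of granule and lipid mediators had a positive median. Of its 12 genes 11 were tested and edgeR called 0, with a median log2 change of 0.27. At an edgeR unadjusted p under 0.05, 4 were higher, against 4.97% of all tested genes, and 1 was lower, against 4.27%. DESeq2 called 1 higher, against 1.54% of all genes, and limma-voom and limma-trend called 0. Hdc, which makes histamine in mast cells and in neutrophils, had 13.5, 29.6 and 25.1 CPM in the Plg KO libraries, against 4.45, 5.21 and 5.99 CPM in the Plg WT libraries. Every Plg KO library was higher, opposite to the proteases (log2 change 2.12 ± 0.29, edgeR adjusted p = 0.0504). The 7 listed neutrophil markers summed to 178 to 539.7 CPM in Plg KO and 38.8 to 72.6 CPM in Plg WT. Most of this sum came from S100a8 and S100a9, with means of 124.9 and 139.7 CPM of 333.3 CPM in Plg KO. The part of neutrophils in the Hdc difference was not tested. The leukotriene cofactor Alox5ap, the granule proteoglycan Srgn and the secretion GTPase Rab27b had log2 changes of 0.52 ± 0.17, 0.55 ± 0.21 and 0.27 ± 0.09, and none passed the test.

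Among 14 growth factors and receptors that sustain or tune mast cells, 9 were tested and edgeR called 0, with a median log2 change of 0.20. At an edgeR unadjusted p under 0.05, 3 were higher, against 4.97% of all tested genes, and 0 were lower, against 4.27%. DESeq2 called 2 higher, against 1.54% of all genes, and limma-voom and limma-trend called 0. Kitl, the ligand of Kit, had a log2 change of -0.11 ± 0.22. Il4ra, the receptor chain for interleukins 4 and 13, had 62.8, 99.6 and 52.9 CPM in Plg KO, against 30.4, 28.6 and 34.7 CPM in Plg WT. Il1rl1, the interleukin-33 receptor of mast cells and type 2 lymphocytes, had 2.08, 5.21 and 2.3 CPM in Plg KO, against 0.955, 1.46 and 0.993 CPM in Plg WT. Both had all Plg KO libraries above all Plg WT libraries, as 7.51% of the tested genes did. Neither passed, with edgeR adjusted p-values of 0.125 and 0.289. Csf2rb, the shared receptor chain for interleukin 3, had a log2 change of 0.45 ± 0.17. Among the genes too low to be tested, Il9r had 0, 0 and 4 counts in Plg KO, against 23, 9 and 4 in Plg WT. Every other untested gene of this list had at most 11 counts over a group.

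Of 12 transcription factors that act beside Gata2, 9 were tested and edgeR and the other tools called 0, with a median log2 change of -0.10. At an edgeR unadjusted p under 0.05, 1 was higher, against 4.97% of all tested genes, and 2 were lower, against 4.27%. Mitf, which drives mast cell and melanocyte genes, had a log2 change of 0.13 ± 0.16. Spi1, the myeloid factor PU.1, had one of 0.72 ± 0.23, and Stat5b, which carries the signal of Kit and cytokine receptors, one of -0.31 ± 0.13. Hes1 and Lyl1 had values of -0.38 ± 0.15 and -0.74 ± 0.55. Gata1, which shares targets with Gata2, was too low to be tested, with 4 counts over the Plg KO libraries and 15 over the Plg WT libraries.

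**Figure D3:**
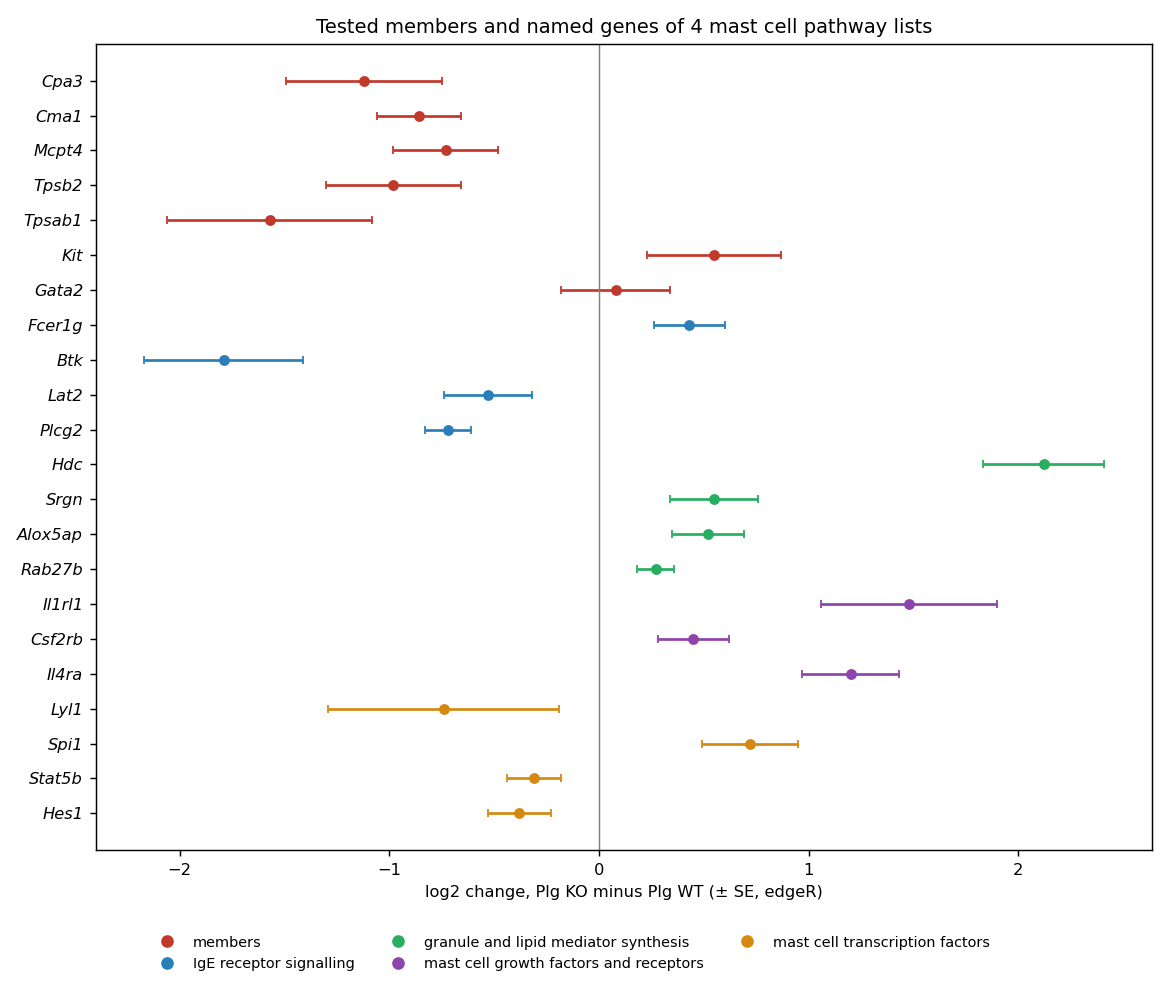
Log2 change, Plg KO minus Plg WT, with its SE from edgeR (horizontal axis), for the 7 tested members in red and for the genes of smallest p in each of 4 pathway lists, 3 or 4 a list, in other colours. The 5 proteases lie between -0.73 and -1.57, left of 0, whereas Kit, Hdc, Il1rl1 and Il4ra lie to the right.

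Markers of fibroblasts, among which connective tissue mast cells sit, had lower mean levels in Plg KO beside the proteases, though none passed the test. Of 8 fibroblast markers edgeR called 0, and DESeq2, limma-voom and limma-trend also called 0. At an edgeR unadjusted p under 0.05, 4 were lower, against 4.27% of all tested genes. All 8 had a negative log2 change, from -0.73 to -0.31 with a median of -0.47. Of the 17757 tested genes, 9024 had a negative log2 change. The receptor Pdgfra had 5.78, 4.39 and 7.81 CPM in the Plg KO libraries, against 10.7, 9.78 and 9.42 CPM in the Plg WT libraries. The matrix proteins Dcn, Col3a1 and Dpt had log2 changes of -0.44 ± 0.19, -0.46 ± 0.19 and -0.48 ± 0.17. Summed over the list, fibroblast markers had 1439 to 2632 CPM in Plg KO and 2276 to 3774 CPM in Plg WT, lowest in Plg KO 2 and highest in Plg WT 2.

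On a centred log2 scale, the mean level of the 5 proteases was -0.89, -0.34 and -0.25 in the Plg KO libraries, against 0.21, 0.74 and 0.55 in the Plg WT libraries, a difference of -0.99 between the group means. The same measure for fibroblast markers differed by -0.49. With the fibroblast level subtracted, the proteases had -0.77, 0.37 and -0.34 in Plg KO, against 0.10, 0.20 and 0.45 in Plg WT. The groups then overlapped, through Plg KO 2, and the difference was -0.50. With endothelium markers subtracted the difference was -0.85, with epithelium markers -0.97, and under both every Plg KO library stayed below every Plg WT library. The part of fibroblast content in the protease levels was not tested.

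**Figure D4:**
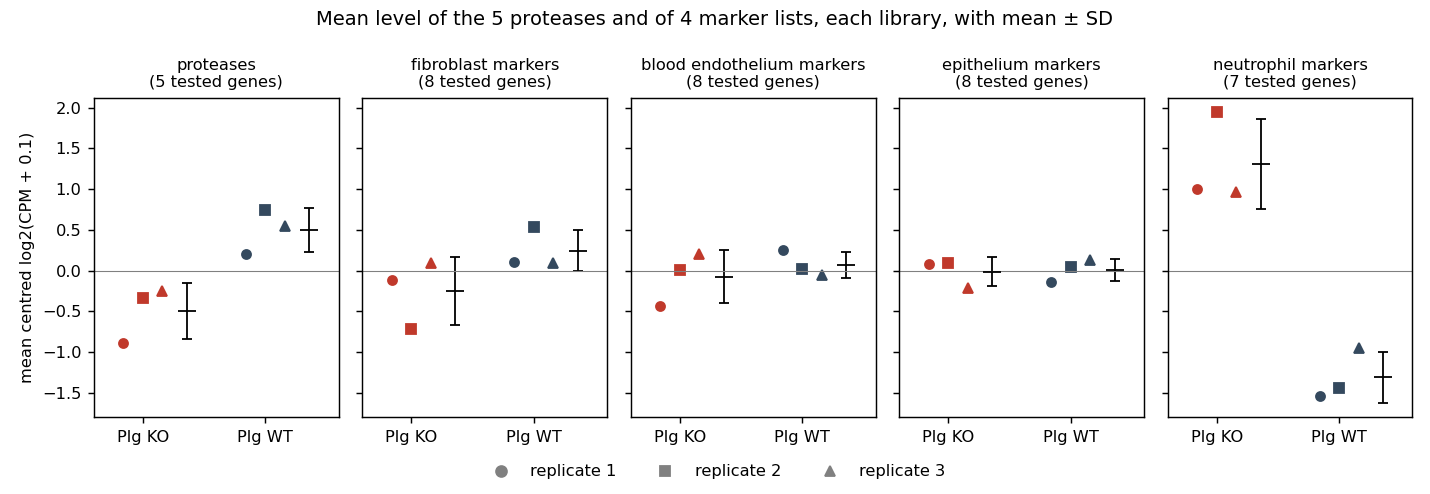
Mean centred log2(CPM + 0.1) of the 5 proteases and of 4 marker lists in each library (vertical axis), with Plg KO on the left and Plg WT on the right and black bars for the mean ± SD. Proteases are below 0 in all 3 Plg KO libraries and above 0 in all 3 Plg WT libraries, and fibroblast markers are lowest in Plg KO 2, while epithelium markers stay within -0.21 to 0.13.

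Other cell types gave these values beside the proteases. Of 8 epithelium markers edgeR, DESeq2, limma-voom and limma-trend called 0, with a median log2 change of -0.06. At an edgeR unadjusted p under 0.05, 1 was higher, against 4.97% of all tested genes. Of 8 endothelium markers the same tools called 0, with 0 at an edgeR unadjusted p under 0.05 and a median of -0.14. Type 2 lymphoid markers had 5 of 7 genes tested and 0 called by edgeR, with a median of -0.36 and 3 of 5 negative. At an edgeR unadjusted p under 0.05, 1 was higher, against 4.97% of all tested genes, and 1 lower, against 4.27%. DESeq2 called 1 higher, against 1.54% of all genes, and limma-voom and limma-trend called 0. The lymphoid nuclear receptor Rora, which epithelium also makes, had a log2 change of -0.45 ± 0.15 with every Plg KO library lower, and the receptors Il7r and Il17rb had -0.51 ± 0.38 and -0.36 ± 0.29. The gene that DESeq2 called was Areg, an epidermal growth factor receptor ligand that epithelium also makes, with 7.15, 9.67 and 8.35 CPM in Plg KO, against 3.74, 3.25 and 2.02 CPM in Plg WT. Of 7 neutrophil markers 2 rose by edgeR, the gelatinase Mmp9 and the receptor Clec4e, against 0.191% of all tested genes called higher. Both calls were kept in 2 of 6 fits that left out a library, without Plg WT 1 and without Plg KO 1, with log2 changes from 2.53 to 3.09 for Mmp9 and from 3.77 to 4.24 for Clec4e. DESeq2 called 6 of the 7 higher, against 1.54% of all genes, and the median log2 change of the 7 was 2.73. Melanocyte markers had 3 of 6 genes tested and 0 called (unadjusted p under 0.05 in 0, DESeq2 and both limma fits 0). All 3 had a negative log2 change, with a median of -0.51.

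The genes most like the proteases over the 6 libraries were ranked by the root mean square distance between their centred log2 levels and the mean of the 5 proteases, among 1781 genes of sufficient level and spread. The nearest was Kcnab2, a potassium channel subunit, at a distance of 0.148, then P4htm, a transmembrane prolyl hydroxylase, at 0.178, and the clock gene Per1 at 0.18. Ntm, Cpeb1 and the secreted matrix protein Ccdc80 followed at 0.183, 0.194 and 0.199. The proteases themselves lay at 0.139 (Cma1) to 0.362 (Tpsab1) from their own mean, so these 6 genes were closer to it than 4 of the 5 members. Per1 fell in Plg KO (log2 change -1.27 ± 0.15, edgeR adjusted p = 0.0326), and the other 5 did not pass the test. Its call was kept in 1 of 6 fits that left out a library, only without Plg WT 1, with edgeR adjusted p-values from 0.0301 to 0.174. A likeness over 6 libraries follows the same difference between groups, and is a description only.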

How the data were processed

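Total RNA of gingiva from 12-week-old mice was made into Nextera XT libraries and sequenced as 37-base read pairs, per the labels' protocols. The kit does not mark strand. Per the submitters' processing notes, the tools were DESeq2, limma, edgeR and STAR (version 2.5.2a), and the builds GRCm38.p3 and mm10, with no role named for any. The counting tool and its treatment of shared reads were not stated. The authors deposited raw counts per gene for 48709 genes, and 22 entries that name no gene (at most 3.55e-05% of a library) were left out. They also deposited CPM values after TMM scaling for 21948 genes, all those that had a count above 5 in some library. In these, 100% of values were whole multiples of 1 read within 0.01 read and equalled the raw counts, and the recovered reads called 42 genes. Names came from the CPM table, and from GENCODE M21 for Ms4a2.

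Genes were tested with edgeR 4.0.16 under R 4.3.3 (quasi-likelihood, TMM, filterByExpr, genotype only) over 17757 genes. The SE is the log2 change divided by the square root of F. CPM values in the text use the TMM factors of this fit. Levels per kilobase use the union of exons in GENCODE M21, and centred levels are log2(CPM + 0.1) minus the gene's mean. The edgeR, DESeq2 and limma-voom fits were tested on simulated data. Alternatives were DESeq2 1.42.0, limma 3.58.1 (voom, and trend on the deposited CPM with pseudocounts of 0.5 and 2), RLE and upper-quartile factors, other filters, a replicate block, a term for sex, summed paralogs and leaving out each library. A fit on recovered reads and the subtraction of marker levels were chosen after seeing the data. The members and lists were chosen with earlier results of these data known. Genes named beside the members were the 4 of smallest p in each list described and the 6 most like the proteases, of those averaging 1 CPM or more and having at least 0.8 times the spread of the protease profile. Of these, 1 gene is not reported here. A few genes named for their role or counts fall outside that rule (Tyr, Mcpt1, Mcpt2, Mcpt8, Mcpt9, Tpsg1, Prss34, Cma2, Kitl, Il9r, Mitf and Gata1) and were chosen after their values were seen. Counting limits cover counting error only, since reads carry no molecular identifiers.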

Additional observations from a re-analysis of the deposited data

How the results depend on the processing

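Of 120 log2 changes of the 7 tested members under the alternatives, 117 kept their direction and their side of the threshold. These include the fit on recovered reads, which equal the raw counts and could not move, and the values with paralogs summed. DESeq2 called Cma1, which made 1 member called instead of 0, and Gata2 had a log2 change of -0.07 without Plg KO 2 and -0.07 without Plg WT 2 (-0.07 to 0.19 when 1 library was left out). The 5 proteases stayed lower in Plg KO under every alternative that tested them. Tpsab1 was too low to be tested with the filter of at least 1 CPM in at least 3 libraries. The log2 changes were -1.47 to -0.58 for Cpa3, -1.01 to -0.67 for Cma1, -0.90 to -0.38 for Mcpt4, -1.29 to -0.71 for Tpsb2 and -2.0 to -0.28 for Tpsab1. Groups that do not overlap fix this direction when 1 library is left out. With 1 library left out, unadjusted p was over 0.05 for Cpa3 without Plg WT 3 (0.0521), for Tpsb2 without Plg WT 2 (0.0629), for Mcpt4 without Plg KO 1 (0.065), Plg KO 2 (0.0631) or Plg WT 2 (0.0802), and for Tpsab1 without Plg KO 3 (0.0533) or Plg WT 3 (0.0532). That of Kit was 0.0478 without Plg KO 3, 0.0208 without Plg WT 1 and 0.0209 with the replicate block. The values nearest 0 for Cpa3, Mcpt4 and Tpsab1 came with a pseudocount of 2. The log2 ratio of the summed proteases moved by less than the spread between libraries under every alternative run.

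Over all genes, 42 were called in the main test, 402 by DESeq2, 162 with no filter on low counts, 65 with a term for sex, and 2 to 219 when 1 library was left out (219 without Plg WT 1, 2 without Plg WT 2, 3 without Plg WT 3, Plg KO 2 or Plg KO 3). With the replicate number as a block 2 genes were called, none of them a member. Same-numbered libraries did not deviate together (r = -0.255, -0.013 and -0.225 for numbers 1, 2 and 3), so the number was not taken as a pairing. The cause of these shifts was not tested. Depth limits Ms4a2, Fcer1a, Mrgprb2 and Tpsab1, which had at most 68 counts over a group.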
